A study of Petromyzon marinus with 17 samples.

Results

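Non-methylated islands (NMIs) that were narrow and present in every tissue examined were described in the sea lamprey (Petromyzon marinus). They were found in 12 BioCAP peak lists and were chosen by presence and width alone: the bases called in both replicates were taken for each tissue, the stretches of the 6 tissues were joined where they overlapped or touched, and a merged NMI was kept if it was present in all 6 tissues and 500 bp wide or narrower. In total, 5473 of 166793 merged NMIs (3.28%) met this rule, which is 10.1% of the 54406 NMIs shared by all 6 tissues. The other 48933 shared NMIs were wider than 500 bp and are called wider shared NMIs here. Among the 82135 merged NMIs within the width limit, 30602 were present in 1 tissue, 17245 in 2, 12913 in 3, 8904 in 4, 6998 in 5 and 5473 in all 6.

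In most vertebrate genomes most CpG sites carry methylation, and NMIs, also known as CpG islands, are the stretches where CpG sites are dense and unmethylated. The study describes the lamprey as different, with intermediate methylation at most CpG sites. NMIs often lie at promoters and other regulatory elements. Proteins with a zinc-finger CxxC domain, among them KDM2B, recognise unmethylated CpG sites and recruit chromatin-modifying complexes to these islands, and many islands are unmethylated in all cell types of an animal.

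BioCAP recovers such DNA from sonicated genomic DNA with the CxxC domain of human KDM2B. Libraries had been made in duplicate from adult brain, adult muscle, adult PBMC (peripheral blood mononuclear cells), adult sperm, embryos at embryonic day 1 and embryos at embryonic day 2, with no treatment or genetic change given in the labels. The comparison of brain/muscle/PBMC with sperm/day 1/day 2 follows the grouping by which the study described the same libraries, so that a difference between the groups is not independent of that grouping. The study states that brain and muscle replicates include a male and a female fish and that PBMC replicates come from different males, without naming the assay, and the sources used here do not say whether the sperm and embryo replicates were separate animals or pools. The p-values below therefore measure the spread between these libraries and tissues, which may in part be technical.

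The lists held 89979 to 141921 peaks per library, with 115448 to 141921 in brain, muscle and PBMC and 89979 to 141295 in sperm, day 1 and day 2. They hold no read counts, so the depth behind a peak is unknown from the files. Day 2 had the shortest lists, at 90003 ± 33.9 peaks (SD, n = 2), and the narrowest peak of a list was between 215 and 260 bp wide. The petMar3 genome and its gene models were not used here. Whether a narrow shared NMI lies in a promoter, an exon or an intron, its CpG density and the marker genes of each tissue were therefore not analysed.

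The narrow shared NMIs were 283 to 500 bp wide, with a median of 452 bp (quartiles 420 and 478 bp), and covered 2.44 Mb, or 2.12% of the 115 Mb in merged NMIs. Each of the 5473 had exactly 1 peak in each of the 12 libraries. The stretch that every tissue shared was 261 bp wide at the median (quartiles 234 and 296 bp, range 24 to 432 bp). It took up a median of 59.9% of the merged NMI, against 48.0% in the wider shared NMIs, whose median width was 975 bp. The share is taken of the merged width, which the rule limits, so this contrast is in part set by the rule. At the width limit, the 67 NMIs of exactly 500 bp had a median common stretch of 278 bp and a median summit range of 80 bp, and the 56 shared NMIs that were 1 bp wider had 274 bp and 97 bp.

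Sperm set the outline of narrow shared NMIs more often than any other tissue. The median stretch called in both replicates of a tissue was 374 bp in brain, 380 bp in muscle, 353 bp in PBMC, 422 bp in sperm, 333 bp in day 1 and 306 bp in day 2. Sperm had the widest stretch in 57.8% of the narrow shared NMIs, and day 2 had the narrowest in 42.7% and day 1 in 25.2%. The left end of the merged NMI came from sperm in 50.7% of cases and the right end in 50.9%, and both ends came from sperm in 1721 (31.4%). The corresponding shares for brain were 19.2% at either end. Widths chose these NMIs, so the values are given as a description.

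Within each list, the peaks at narrow shared NMIs ranked near the middle by fold enrichment, the pile-up at the summit over the local background. The median percentile of the fold enrichment within its own list was 53.4 and 61.3 for the brain replicates, 56.0 and 60.2 for muscle, 46.1 and 45.04 for PBMC, 58.5 and 65.6 for sperm, 56.1 and 54.2 for day 1 and 40.5 and 40.9 for day 2. The wider shared NMIs had medians between 67.5 and 79.8, above those of the narrow ones in 12 of 12 libraries. Only 347 narrow shared NMIs (6.34%) lay above the 50th percentile in every library, against 21800 (44.6%) of the wider shared NMIs. Peak height and width come from the same signal, and no test was made of this difference.

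**Figure D1:**
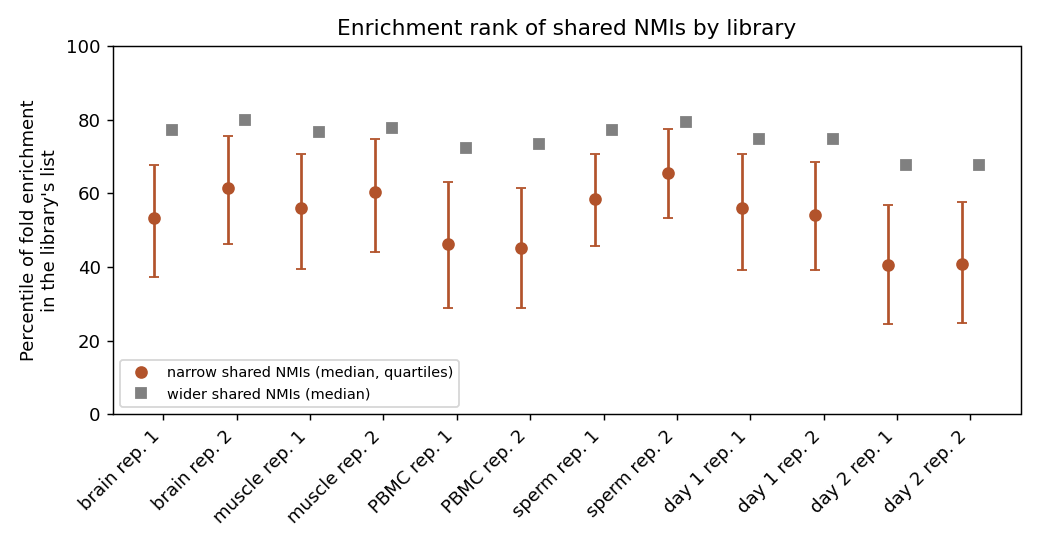
Percentile of the fold enrichment within each library's own peak list (vertical axis) for the 12 libraries (horizontal axis). Circles and bars are the median and quartiles over the 5473 narrow shared NMIs. Squares are the median over the 48933 wider shared NMIs, each represented by its peak of highest fold enrichment, and lie above the circles in every library. Narrow shared NMIs ranked lowest in day 2, with medians of 40.5 and 40.9.

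On the scale of the files, the median fold enrichment at narrow shared NMIs was 8.33 ± 0.244 in brain, 12.5 ± 0.868 in muscle, 10.5 ± 1.58 in PBMC, 15.8 ± 1.22 in sperm, 8.79 ± 0.0283 in day 1 and 7.40 ± 0.247 in day 2 (SD, n = 2 for each tissue). These values depend on the background and depth of each library and were not compared between tissues. The median -log10 q-value of the same peaks was 82.0 and 101 for sperm but 14.0 and 13.7 for day 1 and 9.52 and 10.5 for day 2. The weakest call was mostly in an embryo library: the lowest of the 12 -log10 q-values was in a day 1 or day 2 library for 4871 narrow shared NMIs (89.0%). Low embryo values were not particular to narrow NMIs. In wider shared NMIs the median -log10 q was 19.2 to 23.2 in embryo libraries and 73.8 to 171 in the others. In all, 1506 (27.5%) had a -log10 q below 5 in at least 1 library, and most of these calls were in day 2, with 712 and 601 per replicate. The share was 11.1% in the wider shared NMIs, each represented by its peak of highest fold enrichment. The study's table of libraries lists the day 1 and day 2 libraries with the lowest shares of uniquely mapped read pairs, and the part of depth in these values was not tested.

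The narrow shared NMIs that ranked high everywhere were few. The one with the highest lowest rank was on scaffold PIZI01000050v1 from 6465057 to 6465555. It lay between the 97.9th and 100.0th percentile in brain, muscle and PBMC (median 99.4) and between the 86.9th and 99.4th in sperm, day 1 and day 2 (median 96.0). Its fold enrichment was 32.2 and 36.0 in brain, 38.8 and 40.8 in muscle, 47.8 and 37.7 in PBMC, 46.9 and 49.4 in sperm, 19.4 and 25.0 for day 1 and 17.6 and 20.6 for day 2. All 12 summits lay 230 to 275 bp from its left end. The next in order were on PIZI01000097v1 (492658 to 493146), PIZI01000005v1 (19347355 to 19347843), PIZI01000025v1 (7702228 to 7702673) and PIZI01001631v1 (15918 to 16346), none of which fell below the 81.7th percentile in any library.

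The summit is the base at which the peak caller placed the highest signal, and its position was not used to choose the narrow shared NMIs. The summits of the 12 libraries agreed closely: the distance between the outermost summits had a median of 81 bp (quartiles 61 and 107 bp), or 18.3% of the merged width. It was at most 50 bp in 731 narrow shared NMIs (13.4%), at most 100 bp in 3820 (69.8%) and at most 200 bp in 5197. The median of the 12 summits lay a median of 10.5 bp from the centre of the merged NMI, and from its 5th to its 95th percentile this position ran from 43.2 to 55.9% of the way along it. The width of a peak, which the rule limits, bounds the room for its summit, and the part of this in the centring was not tested.

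Summits also agreed more closely where the peaks ranked higher. When the narrow shared NMIs were divided into 4 equal classes by the lowest of their 12 fold enrichment percentiles, the median summit range was 95, 86, 79 and 68 bp from the lowest class to the highest. Width made less difference within the limit, with medians of 80, 81 and 82 bp in NMIs of up to 400, up to 450 and up to 500 bp. Among wider shared NMIs with 1 peak in every library, the median was 87 bp up to a width of 600 bp and 99 bp up to 700 bp. It was 110 bp up to 800 bp, 126 bp up to 1000 bp and 199 bp up to 2000 bp, each class starting above the one before. Relative to merged width the order was reversed, with a median range of 18.3% in narrow shared NMIs and 15.3% in these wider ones.

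**Figure D2:**
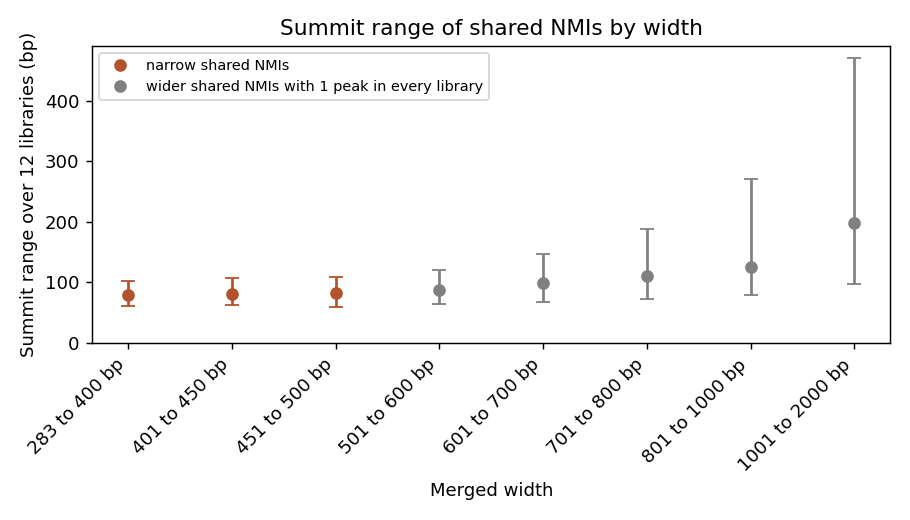
Distance between the outermost summits of the 12 libraries (vertical axis, bp) by merged width (horizontal axis), for shared NMIs with 1 peak in every library. Points are medians and bars are quartiles. The median was 80 to 82 bp in the 3 classes of narrow shared NMIs and 87 to 199 bp in the wider classes. As a share of merged width it was 17.1 to 21.3% in the narrow classes and 14.1 to 16.4% in the wider ones.

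The libraries did not place their summits equally well. The median distance of a library's summit from the median of the other libraries was 16 and 14 bp in brain, 10 and 10 bp in muscle, 13 and 15 bp in PBMC, 13 and 11 bp for sperm, 19 and 19 bp for day 1 and 23 and 22 bp for day 2. Muscle thus lay closest to the common position and day 2 farthest from it. The summit farthest from the others was in day 2 replicate 1 for 17.5% of the narrow shared NMIs and in day 2 replicate 2 for 15.9%, against 2.19% and 1.63% for the muscle replicates. The embryo libraries with the widest scatter were also those with the lowest -log10 q-values, and the part of that in the scatter was not tested.

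**Figure D3:**
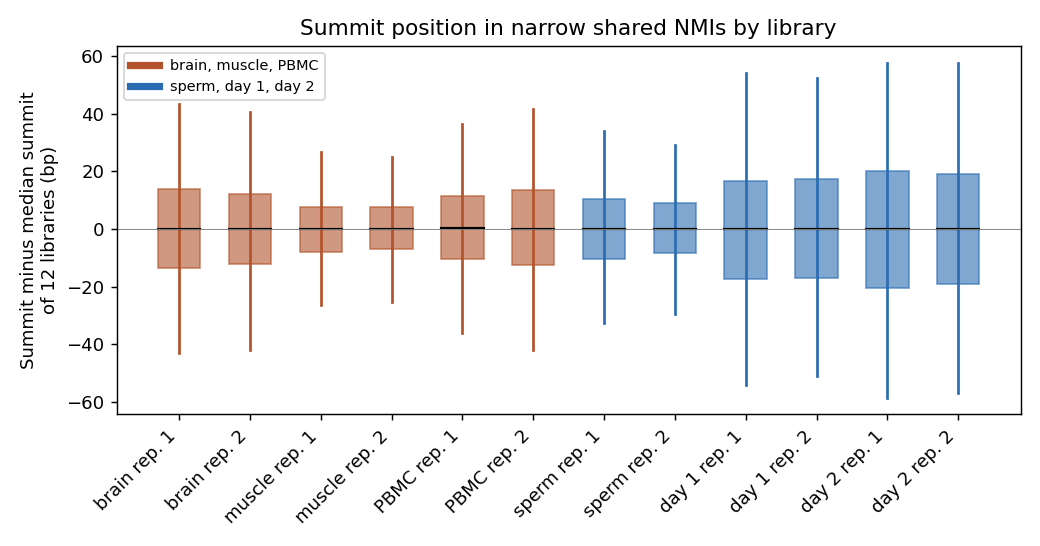
Position of each library's summit relative to the median summit of the 12 libraries (vertical axis, bp) at the 5473 narrow shared NMIs. Boxes span the quartiles, black lines are medians and vertical lines run from the 5th to the 95th percentile. The medians lie at or near 0 in every library, and the spread is smallest in muscle and largest in day 2.

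The tightest agreement was on PIZI01000123v1 from 37555 to 38026, where the 12 summits lay 229 to 239 bp from the left end. Its fold enrichment was moderate, at 8.44 and 8.71 in brain, 7.91 and 10.3 in muscle, 12.1 and 8.36 in PBMC, 6.54 and 6.94 in sperm, 12.8 and 8.48 for day 1 and 12.6 and 11.4 for day 2. The summit ranges of the next 4 were 11, 12, 13 and 13 bp, and their levels were far from even among tissues. On PIZI01003727v1 (2019 to 2509), fold enrichment was 2.77 and 2.12 in brain, 1.74 and 1.84 in muscle, 2.62 and 1.86 in PBMC, 5.44 and 4.75 in sperm, 13.7 and 13.5 for day 1 and 17.2 and 17.3 for day 2. On PIZI01000101v1 (838053 to 838523), it was 1.87 to 3.81 in brain, muscle and PBMC (median 2.33), 4.00 and 3.78 in sperm, 16.2 and 16.3 for day 1 and 23.5 and 21.6 for day 2. In both NMIs the embryo libraries stood well above every other library. Their percentiles were 79.0 to 86.0 and 88.0 to 95.1, against at most 19.5 and 14.8 elsewhere. The summits of all 12 libraries were within 13 bp of each other. Neither NMI was called between the tissue groups (limma adjusted p = 0.119 and 0.188). Embryo -log10 q-values there were 100 to 115 and 145 to 155, against embryo library medians of 9.52 to 14.0 over all narrow shared NMIs. The reason was not tested. The others were on PIZI01005227v1 (2974 to 3440) and PIZI01003105v1 (10143 to 10555).

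At the other end, 503 narrow shared NMIs had a peak that reached into another merged NMI in at least 1 library, and their median summit range was 137 bp, against 80 bp in the other 4970. A summit lay outside the merged NMI in 283 of 65676 cases, in 236 narrow shared NMIs (4.31%). Brain replicate 2 accounted for 145 of the 283 and was the only library outside in 127 narrow shared NMIs. It was likewise the source of the 5 largest ranges, 3984 bp on PIZI01000035v1 (3117470 to 3117905), 3302 bp on PIZI01000012v1 (1293658 to 1294089), 3164 bp on PIZI01000035v1 (6034768 to 6035205), 3146 bp on PIZI01000020v1 (11651487 to 11651943) and 3107 bp on PIZI01000004v1 (19708552 to 19708980). In each of them brain replicate 2 had 1 peak of 3604 to 5006 bp, and without it the range of the same 5 NMIs was 74, 56, 95, 166 and 93 bp. Over all 5473, the 95th percentile of the summit range was 202 bp with brain replicate 2 and 158 bp without it, and the median was 81 bp with it and 79 bp without it.

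Replicates of a tissue were then compared with pairs of libraries from different tissues. The median summit distance over the narrow shared NMIs averaged 18.7 ± 7.28 bp in replicate pairs (SD, n = 6 pairs) and 21.9 ± 4.50 bp in pairs from different tissues (SD, n = 60 pairs). The difference was -3.22 bp and had p = 1e-04 (one-sided exact permutation test on the 10395 ways of pairing 12 libraries), which is the smallest p this test can give. Because the rule asks replicates of a tissue to overlap, the comparison was repeated with NMIs called in either replicate, where the difference was -3.47 bp with the same p in the same exact test. Replicates also had similar scatter around the common summit position, and the part of that in the difference was not tested.

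By median distance, the replicates of brain, muscle, PBMC and sperm were closer than most of their pairs with other tissues. Brain libraries, however, lay 15 to 17 bp from muscle libraries, so brain replicates were no closer to each other than to muscle. The replicate distance was 17 bp in brain, 10 bp in muscle, 15 bp in PBMC and 15 bp in sperm, and 15, 20, 18 and 18 of the 20 pairs with libraries of other tissues were farther apart. In embryos the replicates were not closer by this distance: it was 26 bp in day 1, with 4 of 20 pairs farther apart, and 29 bp in day 2, with 1 of 20. Their summits nevertheless fell on the same base more often, in 2.78% of narrow shared NMIs for day 1 replicates and 4.26% for day 2 replicates. Pairs of an embryo library with a library of another tissue had 0.80 to 1.55%. The closest tissues were muscle and sperm, at a mean of 14.25 bp over their 4 pairs of libraries, and the most distant were day 1 and day 2, at 28.5 bp. These distances include the scatter of each library. The distance between day 1 and day 2 was no larger than the 29 bp between day 2 replicates, so it does not show that the embryo stages differ in summit position. No test was made of single tissues.

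With 3 tissues in each group, the design could not decide whether summit position separates the tissue groups. Pairs of tissues from different groups were a mean of 22.3 bp apart and pairs within a group 21.2 bp, a difference of 1.13 bp. It was the largest of the 10 possible splits of the 6 tissues into 3 and 3, for which a one-sided exact permutation test gives p = 0.1, the smallest value this design allows. The largest difference under any other split was 0.5 bp. Adjusted over the 2 summit tests by Benjamini-Hochberg, the exact permutation p was 2e-04 for replicates and 0.1 for tissue groups.

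Few narrow shared NMIs were called as different in enrichment level between the tissue groups. The fit had 3 tissues in each group, so an NMI that was not called may still differ. With the fold enrichment percentile averaged per tissue and fitted with limma over all 54406 shared NMIs, 4 narrow shared NMIs (0.0731%) were higher in brain/muscle/PBMC than in sperm/day 1/day 2 at a Benjamini-Hochberg adjusted p below 0.05, where 0.388% of all shared NMIs were. In the other direction 14 (0.256%) were lower in brain/muscle/PBMC, where 0.327% of all shared NMIs were. The groups' 6 libraries did not overlap at all in 200 narrow shared NMIs (3.65%) that were higher in brain/muscle/PBMC, against 7.37% of all shared NMIs, and in 173 (3.16%) that were lower, against 4.48%. These shares are below those of all shared NMIs, so the calls are no result about narrow NMIs as a set. The median difference was 0.86 percentile points over the narrow shared NMIs (quartiles -10.8 and 13.0) and 2.23 over all shared NMIs, and an unadjusted p below 0.05 was found for 997 (18.2%) of the narrow ones and 20.6% of all.

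The calls depended on single libraries. Without brain replicate 1, 1 NMI was called higher and 1 lower, and without brain replicate 2, 9 and 29 were. Without muscle replicate 1 the counts were 3 and 5, without PBMC replicate 1 they were 2 and 7, without sperm replicate 2 they were 13 and 9, and without day 1 replicate 1 they were 12 and 9. Without day 1 replicate 2 or without day 2 replicate 1, 1 was called higher and 0 lower, and without day 2 replicate 2 the counts were 2 and 2. Without muscle replicate 2 they were 3 and 14, without PBMC replicate 2 they were 4 and 12, and without sperm replicate 1 they were 6 and 10. Each of these settings also changed which NMIs were narrow and shared. The share called among all shared NMIs moved too, from 0.0492% without day 1 replicate 2 to 1.25% without brain replicate 2. Among narrow shared NMIs it was 0.0189% and 0.775% in these settings. The share of all shared NMIs was 0.0826% without brain replicate 1 and 0.701% without day 1 replicate 1. Leaving out replicate 1 or 2 gave 0.313% and 0.788% for muscle and 0.478% and 0.656% for PBMC. For sperm these shares were 0.641% and 0.973%, and for day 2 they were 0.0502% and 0.151%. The share among narrow shared NMIs was lower in each of these settings. With peaks of a -log10 q of 5 or more, limma called 0 narrow shared NMIs and 18 shared NMIs in all.

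The largest called difference was on PIZI01000059v1 from 26513 to 26907. Fold enrichment there was 17.9 and 20.9 in brain, 24.1 and 28.4 in muscle and 39.8 and 25.5 in PBMC, against 5.70 and 7.89 in sperm, 4.69 and 5.37 for day 1 and 4.31 and 5.55 for day 2. The groups did not overlap, and the percentile was a mean of 91.9 in brain/muscle/PBMC and 20.6 in sperm/day 1/day 2, a difference of 71.3 ± 6.33 (SE; limma adjusted p = 0.0332, n = 3 tissues each). The NMI on PIZI01003871v1 (6524 to 6941) had percentiles of 81.5 to 92.9 in brain, muscle and PBMC (median 85.2), against 5.10 to 43.8 in sperm, day 1 and day 2 (median 42.3). On PIZI01000205v1 (215476 to 215961) they were 57.8 to 98.8 (median 78.6) in brain, muscle and PBMC, against 3.84 to 46.6 (median 29.4) in sperm, day 1 and day 2. On PIZI01000034v1 (5927261 to 5927680) they were 71.2 to 77.7 (median 73.6) in brain, muscle and PBMC and 25.9 to 46.8 (median 32.1) in sperm, day 1 and day 2. Summits stayed in place in all 4, with ranges of 91, 40, 78 and 88 bp over the 12 libraries.

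Among the 14 that were lower in brain/muscle/PBMC, the largest difference was on PIZI01000025v1 from 6504352 to 6504841. Fold enrichment there was 4.08 and 5.12 in brain, 4.72 and 5.52 in muscle and 6.91 and 7.21 in PBMC, against 27.0 and 28.4 in sperm, 13.4 and 13.6 for day 1 and 16.5 and 15.6 for day 2. The mean percentile was 24.0 in brain/muscle/PBMC and 82.2 in sperm/day 1/day 2, a difference of -58.2 ± 6.41 (SE; limma adjusted p = 0.0378, n = 3 tissues each). On PIZI01000062v1 (1193013 to 1193505) the mean percentile was 28.8 in brain/muscle/PBMC and 85.0 in sperm/day 1/day 2. On PIZI01000038v1 (5530368 to 5530863) it was 12.9 in brain/muscle/PBMC and 67.2 in sperm/day 1/day 2. On PIZI01000084v1 (412881 to 413367) it was 17.3 in brain/muscle/PBMC and 71.6 in sperm/day 1/day 2, and on PIZI01000027v1 (4691014 to 4691493) 15.7 in brain/muscle/PBMC and 69.8 in sperm/day 1/day 2. The groups did not overlap in 13 of the 14. In the 5 named, brain, muscle and PBMC were called as peaks of low rank. The median percentile over their 6 libraries was 11.6 to 22.8, against 69.0 to 86.1 in sperm, day 1 and day 2. The median -log10 q over the brain, muscle and PBMC libraries was 8.38 to 22.8. Single libraries had 131 to 224 in sperm and 12.7 to 41.3 in day 1 and day 2, but separate lists share no scale of q.

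**Figure D4:**
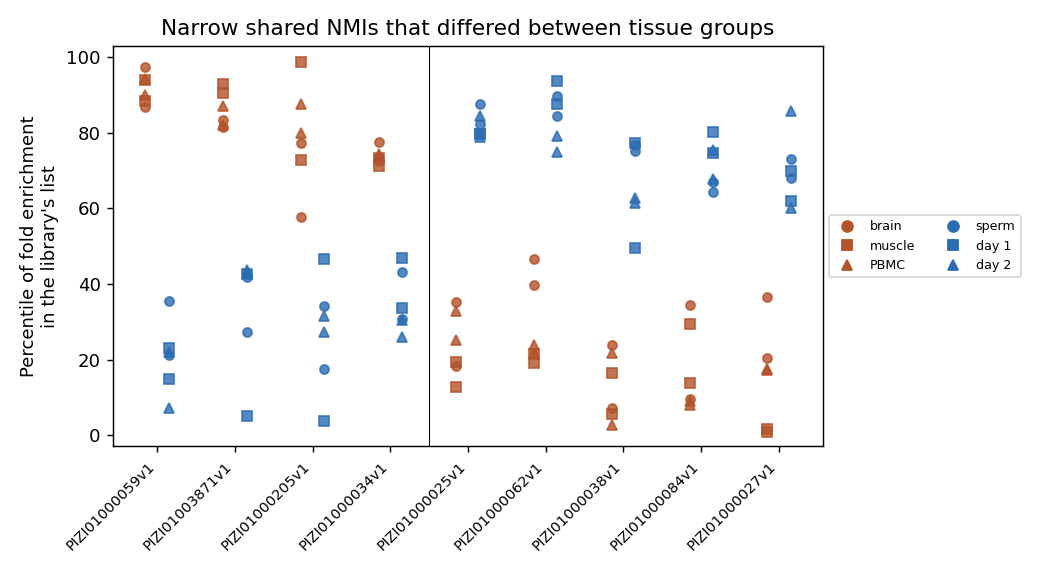
Percentile of fold enrichment within each library's list (vertical axis) at the 9 narrow shared NMIs named for a difference between tissue groups, labelled by scaffold. Each point is 1 library, with brain, muscle and PBMC on the left of each pair of columns and sperm, day 1 and day 2 on the right. The 4 NMIs left of the line were higher in brain/muscle/PBMC and the 5 right of it lower, and the groups do not overlap in any of the 9.

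Like merged NMIs in general, narrow shared NMIs were rarely isolated. Of the 5473, 96 were the only merged NMI on their scaffold and 5377 had a neighbour. For these 5377, the gap to the nearest merged NMI had a median of 955 bp (quartiles 441 and 2140 bp), against 754 bp for wider shared NMIs, 1072 bp for narrow NMIs that were not shared and 915 bp for all merged NMIs. It was at most 500 bp for 1555 (28.9% of the 5377) and above 10000 bp for 177 (3.29% of the 5377). The same shares were 36.5% and 3.32% for wider shared NMIs and 31.4% and 4.12% for all merged NMIs. Stretches that touch are joined by the rule, so that spacing is given without a test.

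**Figure D5:**
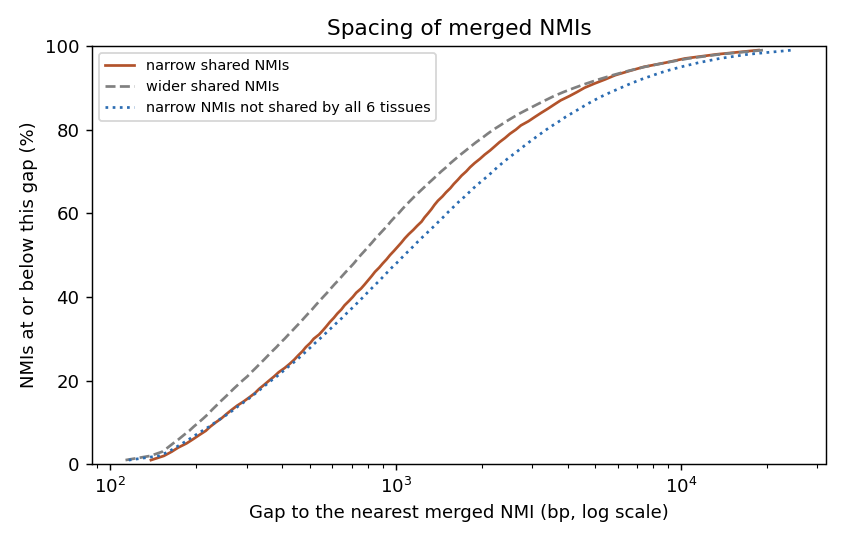
Share of NMIs (vertical axis, %) whose gap to the nearest merged NMI is at or below the value on the horizontal axis (bp, log scale). The solid line is narrow shared NMIs, the dashed line wider shared NMIs and the dotted line narrow NMIs not shared by all 6 tissues. Narrow shared NMIs lie between the other lines over most of the range, with a median of 955 bp.

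Within the lists of single tissues, the median gap from a narrow shared NMI to the next NMI of that tissue was 1341 bp in brain, 1435 bp in muscle, 1673 bp in PBMC, 1195 bp in sperm, 1604 bp in day 1 and 2276 bp in day 2. The medians over all NMIs of the same tissues were shorter in each case, at 1060, 1124, 1205, 939, 1074 and 1434 bp. Day 2, with the shortest list, had the widest spacing in both. A wider merged NMI can hold several stretches of a tissue close together, whereas each narrow shared NMI had 1 peak per library. The width rule thus bears on this comparison, and its part in the difference was not tested.

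The nearest neighbour was itself present in all 6 tissues for 39.5% of the 5377 narrow shared NMIs with a neighbour. This was the case for 41.9% of wider shared NMIs and 33.1% of all merged NMIs with a neighbour. It was a wider shared NMI for 1852 of the 5377 (34.4%, 95% Wilson interval 33.2 to 35.7%), against 38.2% for wider shared NMIs and 29.9% for all merged NMIs. For 270 of the 5377 (5.02%) it was another narrow shared NMI. A narrow shared NMI was nearest for 3.62% of wider shared NMIs, 3.13% of narrow NMIs that were not shared and 3.24% of all merged NMIs. The interval covers counting error only, and neighbouring NMIs are not independent.

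Most narrow shared NMIs, 5008, had no other narrow shared NMI as an adjacent merged NMI. On 491 scaffolds there was 1 only. For the other 4982, the distance to the next narrow shared NMI had a median of 35307 bp (quartiles 11545 and 99363 bp), and 637 (12.8% of the 4982) had another within 5000 bp. In all, 241 pairs of adjacent merged NMIs were both narrow and shared, where narrow shared NMIs made up 3.28% of merged NMIs. These pairs formed 209 runs of 2, 13 runs of 3 and 2 runs of 4. The longest were on PIZI01000006v1 from 17613995 to 17618924, with 4 narrow shared NMIs separated by 685 to 1514 bp, on PIZI01000079v1 from 39631 to 49139, with 4 separated by 1335 to 4988 bp, and on PIZI01000001v1 from 16429426 to 16432148, with 3 separated by 469 to 909 bp.

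The closest pair was on PIZI01000031v1, where 105 bp separated an NMI at 9568355 to 9568788 from one at 9568894 to 9569385. In brain replicate 2, sperm replicate 1 and day 1 replicate 1, 1 peak covered both, with the same fold enrichment of 8.04, 22.8 and 9.03 at either NMI. The other libraries gave each its own peak, for example 3.59 and 7.48 in brain replicate 1. The pairs on PIZI01002163v1 (3797 to 4200 and 4335 to 4775) and PIZI01000028v1 (10907601 to 10908088 and 10908228 to 10908592) were 134 and 139 bp apart. A single peak of brain replicate 2 covered both NMIs of the first of these pairs, and single peaks of brain replicate 1 and PBMC replicate 2 covered both NMIs of the second.

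The most isolated narrow shared NMI was on PIZI01000007v1 from 6892309 to 6892774, 96626 bp from any other merged NMI. Its fold enrichment was 4.93 and 7.42 in brain, 10.5 and 12.4 in muscle, 10.1 and 6.04 in PBMC, 18.1 and 20.2 in sperm, 6.24 and 8.02 for day 1 and 4.75 and 5.88 for day 2. The next were on PIZI01000097v1 (8757 to 9145), at 70799 bp, and on PIZI01000020v1 (2625289 to 2625783), at 67260 bp. In all 3 the 12 summits stayed within 78 bp of each other.

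Narrow shared NMIs were spread over the assembly. They lay on 698 of the 5623 scaffolds that held a merged NMI, and 491 of these scaffolds held 1 only. The 118 scaffolds with at least 100 merged NMIs held 4741 (86.6%) of the narrow shared NMIs, against 90.9% of the wider shared NMIs and 88.4% of all merged NMIs. On these scaffolds they made up a median of 3.27% of merged NMIs (quartiles 2.71 and 3.73%). PIZI01000001v1 held the largest number, 155 of 5166 merged NMIs. The highest share was 6.36% on PIZI01000163v1 (7 of 110, 95% Wilson interval 3.12 to 12.6%), followed by 5.995% on PIZI01000079v1 (25 of 417, interval 4.09 to 8.70%), and PIZI01000099v1 had 0 of 205, for which the interval reaches 1.84%. These scaffolds were picked as extremes among 118, and no test was made of them.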

How the data were processed

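BioCAP libraries of 6 tissues with 2 replicates each were analysed from 12 deposited peak lists. Per the labels, the authors used Trimmomatic, Bowtie2, Picard, MACS2 and deepTools, and called peaks on petMar3 in each library, without pooling replicates. The study gives their versions as Trimmomatic 0.36, Bowtie2 2.1.0, Picard 2.3.0, MACS2 2.1.2 and deepTools 3.5.0. For the settings of MACS2 and any use it made of inputs, nothing is given in the sources consulted. Inputs, listed for every tissue except PBMC, were left out. For each peak the authors deposited a position, a fold enrichment (a ratio over local background), a -log10 p-value, a -log10 q-value, a score and a summit offset. The score and the -log10 p-value were not used. The files hold no counts, so depth is unknown from them.

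Presence needed an overlap of 1 bp. Each library was represented at an NMI by 1 peak, the one with the highest fold enrichment. That value was turned into a percentile of the library's own list, because fold values of separate lists are not on one scale. Tissue means of the percentile were fitted with limma over all 54406 shared NMIs, with Benjamini-Hochberg adjustment at 0.05, as brain/muscle/PBMC minus sperm/day 1/day 2. Summit distances were tested with exact permutation tests over libraries or tissues. Intervals are 95% Wilson intervals and cover counting error only. Positions are given from 1 on petMar3. Python 3.11.15, NumPy 2.4.6, SciPy 1.17.1, Matplotlib 3.10.9, R 4.3.3 and limma 3.58.1 were used, and the functions were checked on simulated data.

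The named NMIs are the 5 with the highest lowest-of-12 percentile, the 5 with the smallest summit range (at 300 bp or wider), the 5 with the largest, the 3 most isolated on scaffolds with at least 10 merged NMIs, the 3 closest pairs, the 3 longest runs and up to 5 called in each direction. Scaffolds with extreme shares, PIZI01000001v1 among them, were named after their values were seen. The NMIs, the rule and the lists were chosen with earlier results of these data known. Alternatives were other thresholds on -log10 q, equally long lists, other width limits and merging rules, other scales of enrichment, fits of 12 libraries, and each library left out in turn.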

Additional observations from a re-analysis of the deposited data

Results flagged for a closer look

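In 16 sets of 6 libraries, each a measure within one tissue group, 2 values stood apart from the other libraries of their group. The bound used sets apart about 1 group in 20 by chance only if its 6 values are independent. Here each group held 2 replicates of each tissue and the sets shared libraries, so that rate may not hold. Brain replicate 2 had 145 summits outside the narrow shared NMI to which its peak belonged, against 28 in brain replicate 1 and at most 11 in the muscle and PBMC libraries. Brain replicate 1 had 81 narrow shared NMIs with a -log10 q below 5, against 12 in brain replicate 2 and at most 31 in the muscle and PBMC libraries.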

How the results depend on the processing

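The number of narrow shared NMIs was 5473, and 3782 to 6354 with 1 library left out. It was 1313 with a -log10 q of 10 or more, 2759 with equally long lists (89979 peaks each), 794 and 11731 with width limits of 400 and 600 bp, and 1807 when the width was that of the union of whole peaks. The median summit range of 81 bp was 76 to 81 bp with 1 library left out and 68 bp at a -log10 q of 10 or more. The summit distance of replicates minus that of different tissues was -3.22 bp. It was -4.38 to -2.32 bp with 1 library left out and -3.67 to -2.33 bp under the other alternatives, and every alternative that was run kept p at or below 0.0235 in the exact permutation test. The difference between tissue groups was 0.74 to 1.69 bp and its exact permutation p was 0.1 throughout, the smallest this design allows. The median gap of 955 bp was 897 to 965 bp with 1 library left out and 2539 bp when only NMIs shared by all 6 tissues counted as neighbours. The share with a wider shared NMI as nearest neighbour, 34.4%, was 32.8 to 37.0% with 1 library left out, 87.7% with shared NMIs only as neighbours, 32.3% and 27.2% at a -log10 q of 5 or 10 or more, 38.6% with equally long lists, 39.1% with NMIs of either replicate, 27.3% with a reciprocal overlap of 50%, and 38.2% and 30.3% with width limits of 400 and 600 bp.

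Calls between tissue groups were the least stable. In the main fit, calls in either direction took 0.329% of narrow shared NMIs and 0.715% of all shared NMIs. The share called among all shared NMIs moved with the setting as well, and was above that of narrow shared NMIs wherever any NMI was called. It was 4.79%, against 4.07% of narrow ones, with median-centred log2 fold enrichment. The 2 shares were 1.97% and 1.26% with NMIs of either replicate, and 2.00% and 1.34% with equally long lists. Other width limits left the share of all at 0.715%, against 0.126% of narrow ones at 400 bp and 0.605% at 600 bp. The 4 higher and 14 lower in brain/muscle/PBMC were 48 and 175 with median-centred log2 fold enrichment, 0 and 0 at a -log10 q of 5 or of 10 or more, 1 and 0 at a width limit of 400 bp, 21 and 50 at 600 bp, 36 and 20 with NMIs of either replicate, 6 and 31 with equally long lists, 3 and 5 with the union of whole peaks, and 1 to 13 and 0 to 29 with 1 library left out. Fits of 12 libraries, with tissue as a block, gave 75 and 117, and 59 and 96 with the replicate number added as a covariate. The shares called in these fits were 3.51% and 2.83% of narrow shared NMIs, against 4.71% and 3.87% of all shared NMIs. These fits take libraries rather than tissue means as units, with a common correlation estimated between the replicates of a tissue. The sources used here do not say whether the replicate numbers pair samples across tissues. The deviations of same-numbered libraries correlated at -0.20 to 0.29 over 15 pairs of tissues, above 0.1 in 3, which cannot exclude a pairing. The cause of these changes was not tested.

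A narrow shared NMI needs a call in all 12 libraries, and for 89.0% of the set the weakest of the 12 calls was in day 1 or day 2. An NMI missing from a list was not called rather than shown to be methylated. Fold enrichment and q-values of separate lists share no scale, and the peak lists hold no read counts. Without the petMar3 sequence, the mappability of narrow regions and their CpG content were not analysed here.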

Other observations

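Scaffolds with fewer than 10 merged NMIs held 476 of the narrow shared NMIs (8.70%, against 7.20% of all merged NMIs). The mean percentile of brain/muscle/PBMC and that of sperm/day 1/day 2 were more than 40 points apart in 42 of them (8.82%), against 104 (2.08%) of the 4997 on other scaffolds. Among wider shared NMIs the same bound was passed by 197 of 2625 (7.50%) on these small scaffolds and 1570 of 46308 (3.39%) on the others, so the pattern is not particular to narrow NMIs. The limma calls at an adjusted p below 0.05 were 1 higher and 1 lower in brain/muscle/PBMC among the 476, and 3 higher and 13 lower among the 4997. Of the wider shared NMIs, 40 of the 2625 on small scaffolds and 331 of the 46308 on the others were called in either direction. Of the 42, brain/muscle/PBMC was higher in 17 and lower in 25. The bound of 40 points was set after the values were seen, and no test was made. The median summit range was 75 bp on the small scaffolds and 82 bp on the others.

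Some narrow shared NMIs were called in every library although the fold enrichment was below the 1st percentile of a list. There were 15 and 6 such NMIs in the brain replicates, 23 and 17 in muscle, 23 and 20 in PBMC, 3 and 3 in sperm, 4 and 2 for day 1 and 14 and 20 for day 2. Their median -log10 q was 6.16 and 8.11 in muscle, 16.04 and 20.2 in sperm and 2.23 and 2.27 in day 2. These counts are too small for a comparison between tissues.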
